A study of Mus musculus with 24 samples.

Results

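The subcortical maternal complex is a protein assembly that mouse oocytes build beneath the cell surface and pass on to the early embryo. The transcripts of its 6 core genes, Nlrp5, Ooep, Tle6, Khdc3, Padi6 and Zbed3, were followed from the oocyte to the 2-cell embryo in mice with and without Nlrp14. The members were taken by symbol, through the gene annotation of genome build GRCm38. All 6 were found among the 55487 genes measured, and all 6 passed the filter on low values in each of the 10 comparisons. The series comprised 24 libraries, each made from 5 oocytes or embryos with the SMART-Seq HT kit, which makes full-length complementary DNA from very few cells. There were 8 groups of 3 libraries, labelled as biological replicates: wild type (WT) and Nlrp14 knockout (KO), each at the germinal vesicle stage (GV, the fully grown oocyte before maturation), metaphase II (MII, the ovulated egg), PN5 (the late pronuclear zygote) and the 2-cell embryo. The labels name no treatment, and they leave out the strain, the age of the animals, the extent of the Nlrp14 deletion and the genotype of the sires.

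NLRP5 (also called MATER), OOEP (FLOPED) and TLE6 bind one another and form the heart of the complex, to which KHDC3 (FILIA) attaches. PADI6 is a member of the peptidylarginine deiminase family that is needed for the cytoplasmic lattices, fibrous stores of the oocyte. ZBED3 is a zinc finger protein found with the complex in mouse oocytes and linked to the position of the spindle. The genes are transcribed in growing oocytes, the proteins persist into cleavage, and females that lack Nlrp5, Ooep, Tle6 or Padi6 produce embryos that stop at early cleavage stages. NLRP14 is another oocyte protein of the same family as NLRP5.

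The label of the knockout was checked first. Nlrp14 lay at 1937 ± 70.6 FPKM (fragments per kilobase of gene model and per mapped library size; mean ± SD, n = 3) in WT GV oocytes and at 28.4 ± 9.41 FPKM in KO GV oocytes. KO means were 1.46% of WT at GV, 5.02% at MII, 3.24% at PN5 and 24.9% in 2-cell embryos, and every KO library lay below every WT library of its stage. The 2-cell share went with a WT mean of 210 FPKM at PN5 and 106 FPKM in 2-cell embryos, and a KO mean of 6.8 and 26.4 FPKM. Values per gene do not show which exons the KO fragments came from, so what the 24.9% stands for is not known. All 9 oocyte markers on the list (zona proteins, Gdf9, Bmp15 and others) averaged at least 1 FPKM in every group. Of 14 granulosa and cumulus markers at most 4 did so, and their sum stayed at or below 24.1 FPKM outside WT 2-cell embryos, where it was 27.4 to 44.5 FPKM. Among 8 sperm markers the sum did not exceed 12.7 FPKM in any library. Depth implied by the values was 7.64 to 12.3 M fragments per library. Replicate 3 of the KO GV group stood apart: it had 10379 genes at 1 FPKM or more, against 11264 to 11662 in the other GV libraries, and a summed FPKM of 456463 against 372963 to 384375. Results that rest on it are given with and without it. Since whole oocytes and embryos were pooled in a library, a lower value cannot tell less RNA per cell from fewer cells that hold it. Nothing in the labels says how many animals the replicates came from, so p-values cover the spread from library to library only.

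In GENCODE release M21 on GRCm38, Nlrp5 (ENSMUSG00000015721) spans chr7:23385889-23441922 on the plus strand and Tle6 (ENSMUSG00000034758) chr10:81590904-81601073 on the minus strand. Ooep (ENSMUSG00000032346, chr9:78376109-78378725, minus strand) and Khdc3 (ENSMUSG00000092622, chr9:73101836-73104438, plus strand) lie on the same chromosome. Padi6 (ENSMUSG00000040935) spans chr4:140727355-140742643 on the minus strand, and Zbed3 (ENSMUSG00000041995) chr13:95323612-95337841 on the plus strand. Khdc3 shares 790 exon bases with the same-strand gene Gm20509, which reached at most 2.598 FPKM in any library, so the division of reads between these 2 genes is uncertain. The span of Zbed3 holds the small nucleolar RNA genes Snora47 and Gm22661, with no exon base in common.

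The 3′ end of a maternal transcript carries the letters that set where it is cleaved and, during maturation, whether its tail is extended. These ends are shown because Zbed3, which behaved unlike the other members at maturation, also differed from them here. Each line gives 30 bases of the sense strand from the GENCODE M21 transcript on GRCm38. It ends with the cleavage signal where one was found in the last 100 bases. Capitals mark the polyadenylation signal AATAAA and the cytoplasmic polyadenylation letters TTTTAT or TTTTAAT.
Nlrp5 (chr7:23441875-23441904, plus strand): ccttggaggatgtagcaagaatgaAATAAA
Ooep (chr9:78376109-78376138, minus strand): aactcaggaccacaggctatgagtagcata
Tle6 (chr10:81590919-81590948, minus strand): gtgtgcagatcccgagttgcgtgtAATAAA
Khdc3 (chr9:73104397-73104426, plus strand): tgcaaacacaatttaaagtattctAATAAA
Padi6 (chr4:140727373-140727402, minus strand): atgtaaacaaattgccatagagccAATAAA
Zbed3 (chr13:95337797-95337826, plus strand): ttgcaacactccttttttttTTTTAATAAA

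AATAAA was present in the last 100 bases of 5 of the 6 transcripts, starting 18 to 24 bases from the end, and in 61.1% of 21782 annotated coding transcripts. Ooep had neither AATAAA nor ATTAAA there, and its last 30 bases are shown instead. Its 3′ untranslated region held 3 polyadenylation signals, all further upstream than the last 100 bases. Whole regions held 2 in Zbed3 and 1 in each of the other 4. Whether Ooep transcripts end near the upstream signals was not tested, so the bases shown are those of its annotated end. The 3′ untranslated region of Ooep was the longest at 1446 bases, followed by Zbed3 at 1085 bases, while the other 4 measured 109 to 246 bases. In Zbed3 the letters TTTTAAT run into the polyadenylation signal. It held 2 matches to TTTTAT or TTTTAAT in the last 100 bases and 5 in the whole untranslated region, and the other 5 members held 0 in either. Of all transcripts searched on the sense strand, 16.5% had at least 1 such match in their last 100 bases. No such share was taken for whole regions, whose lengths differ as given above. Of the 2 matches in the last 100 bases of Zbed3, TTTTAT begins 14 bases from the end. It lies past the polyadenylation signal and outside the printed bases. These are matches of letters only.

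Upstream of the start, the E-box CANNTG is the letter pattern bound by basic helix-loop-helix factors, among them the oocyte factor FIGLA. The 250 bases before the annotated start of Ooep, Khdc3 and Padi6 are shown because, counted from the RefSeq start, each has such a match beginning 78 bases before it. Sequences are from RefSeq on GRCm38.p6, 5′ to 3′ in the direction of transcription, with every CANNTG in capitals. The pattern reads the same on both strands.
Ooep (chr9:78378589-78378838, minus strand): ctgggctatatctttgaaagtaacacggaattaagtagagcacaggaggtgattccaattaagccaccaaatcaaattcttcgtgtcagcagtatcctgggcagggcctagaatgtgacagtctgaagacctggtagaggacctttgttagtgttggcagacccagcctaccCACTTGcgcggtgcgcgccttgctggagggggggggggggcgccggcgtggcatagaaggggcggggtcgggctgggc
Khdc3 (chr9:73102148-73102397, plus strand): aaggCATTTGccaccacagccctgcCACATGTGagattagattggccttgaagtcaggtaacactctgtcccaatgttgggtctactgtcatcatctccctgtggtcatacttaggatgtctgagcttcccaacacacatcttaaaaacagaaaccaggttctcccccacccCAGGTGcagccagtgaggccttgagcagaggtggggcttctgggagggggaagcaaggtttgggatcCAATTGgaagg
Padi6 (chr4:140742644-140742893, minus strand): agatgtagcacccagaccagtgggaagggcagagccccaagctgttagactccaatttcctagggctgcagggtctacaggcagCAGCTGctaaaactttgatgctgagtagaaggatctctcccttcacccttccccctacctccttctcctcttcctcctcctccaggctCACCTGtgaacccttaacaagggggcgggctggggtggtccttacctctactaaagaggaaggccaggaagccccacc

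At least 1 CANNTG occurred in 66.2% of 32851 windows of this length, and 0.484% of windows had one that began at that distance. The shared distance was noticed after the sequences were seen, and it holds for RefSeq starts only. The 1 GENCODE transcript of Ooep starts 137 bases further upstream, so its match lies inside that gene model. For Khdc3, 2 of 4 GENCODE coding transcripts begin at the RefSeq start, and the furthest upstream begins 562 bases before it, so that the printed window lies within the span of the gene. The furthest upstream GENCODE start of Padi6 is the RefSeq start. No window of Nlrp5, Tle6 or Zbed3, which have more than 1 annotated start in RefSeq, had a match there, and all of their windows held the pattern elsewhere.

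In WT GV oocytes the core transcripts differed widely in level. Ooep was measured at 1694, 1502 and 1469 FPKM in the 3 libraries and Padi6 at 1302, 1650 and 1168 FPKM, and these neighbours overlapped. Zbed3 followed at 695, 614 and 542 FPKM, then Tle6 at 234, 328 and 239 FPKM and Nlrp5 at 168, 212 and 181 FPKM. Khdc3 was lowest, at 93.1, 89.6 and 94.0 FPKM. Below Padi6 each gene in this order was separated from the next in every library. The order of mean levels was the same in KO GV oocytes, but there Zbed3, Tle6 and Nlrp5 each overlapped the next in line, as did Ooep and Padi6. The 6 genes summed to 4092 ± 361 FPKM in WT GV oocytes.

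**Figure D1:**
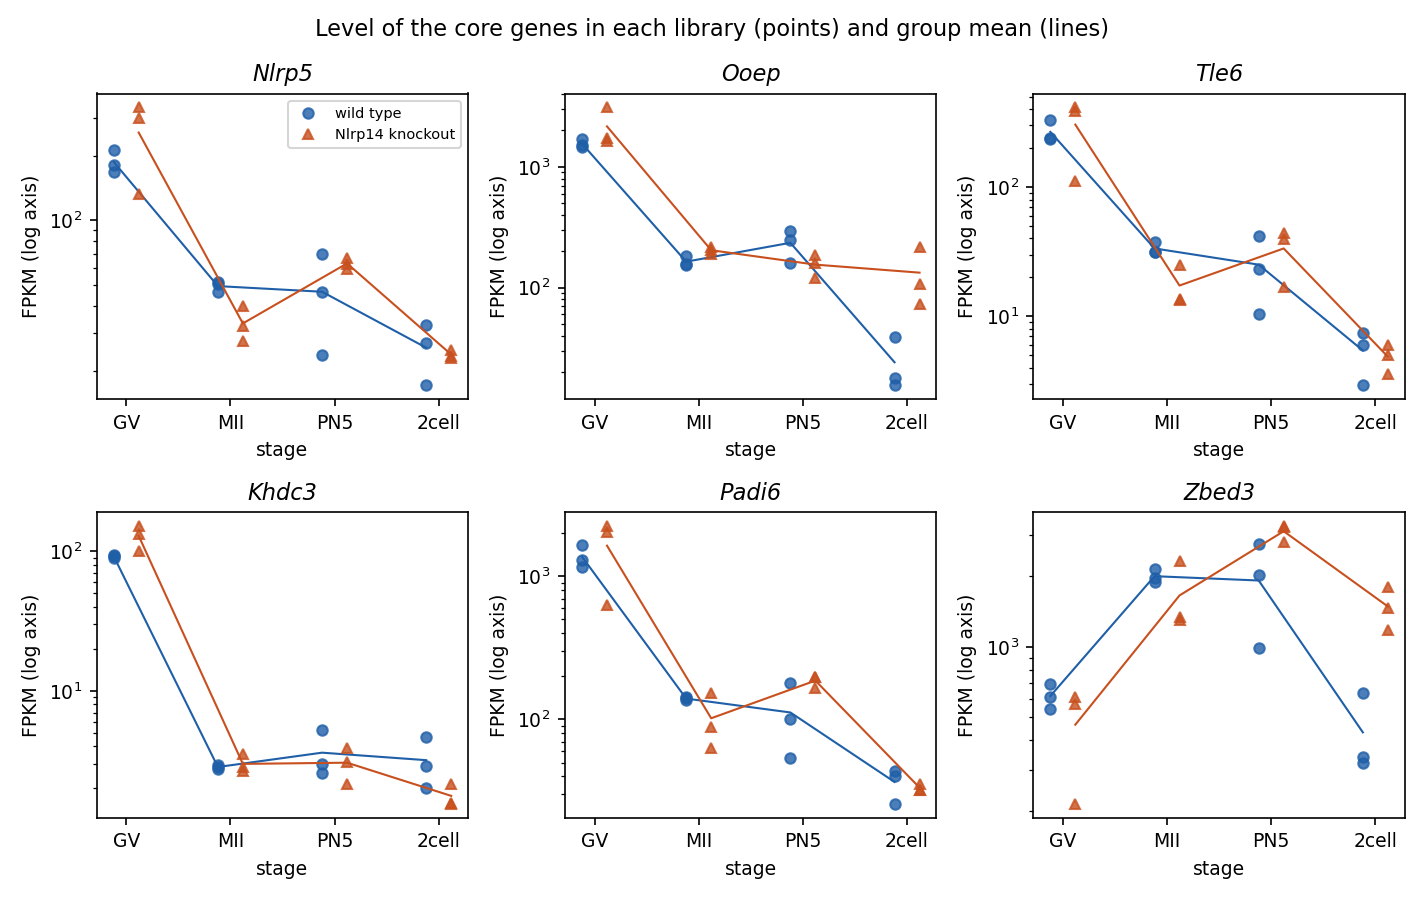
FPKM of each core gene (vertical log axis) at the 4 stages (horizontal axis) in every WT library (circles) and KO library (triangles), with lines through the mean of the 3 libraries in a group. From GV to MII the WT lines of 5 genes go down, while Zbed3 goes from 617 to 2002 FPKM in WT, and KO 2-cell libraries lie above WT for Ooep and Zbed3.

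Between GV and MII, when the oocyte resumes meiosis without new transcription, 5 core transcripts fell in WT and Zbed3 rose. All 6 were called at an adjusted p under 0.05, where 84.0% of 11610 genes tested were called, and all 6 had MII libraries clear of the GV libraries, as did 85.0% of genes. By direction, 52.8% of genes were called lower and 31.1% higher at MII. A call alone is therefore near the background of this comparison, and the sizes carry the description. The median log2 difference was -3.09 over the members and -0.50 over all genes tested.

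Of the members at the heart of the complex, Ooep went from 1555 to 164 FPKM, a log2 difference of -3.24 (SE 0.09, adjusted p = 3.6e-08). Its MII libraries read 157, 182 and 153 FPKM. Tle6 read 31.4, 37.6 and 31.7 FPKM at MII and kept 12.6% of its GV mean (log2 difference -2.94, SE 0.14, adjusted p = 5.1e-07). Nlrp5, at 50.6, 51.6 and 46.3 FPKM, kept the most of these genes, 26.5% of its GV mean (log2 difference -1.89, SE 0.10, adjusted p = 7.6e-07). Khdc3 dropped furthest: its MII libraries held 2.77, 2.84 and 2.95 FPKM, which is 3.09% of the GV mean (log2 difference -4.60, SE 0.08, adjusted p = 8.3e-09). Padi6 read 144, 141 and 136 FPKM, 10.2% of its GV mean (log2 difference -3.27, SE 0.12, adjusted p = 1.3e-07). Zbed3 moved the other way, to 1964, 1896 and 2148 FPKM, which is 3.25 times its GV mean (log2 difference 1.70, SE 0.10, adjusted p = 1.2e-06). Its rise lay at percentile 98.4 of all log2 differences and the drop of Khdc3 at percentile 1.92. FPKM gives the share of a gene in its library, not copies per oocyte. Tail length was not measured, and its part in these values, the rise of Zbed3 included, was not tested.

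After fertilisation, from MII to PN5, no member was called in WT by limma, and 0 had an unadjusted p under 0.05. Calls made up 14.2% of 9375 genes tested. The spread was wide in PN5 zygotes: Nlrp5 read 23.6, 46.4 and 69.8 FPKM, Tle6 10.4, 23.3 and 41.6 FPKM, Padi6 53.6, 101 and 181 FPKM and Zbed3 992, 2029 and 2735 FPKM. In each of these 4 genes replicate 1 was lowest and replicate 3 highest, whereas Ooep ran the other way, at 295, 248 and 161 FPKM. Khdc3 stayed between 2.57 and 5.26 FPKM. The summed FPKM of the whole library moved along with these values, at 462297 in replicate 1, 369873 in replicate 2 and 322159 in replicate 3, and its part in them was not tested. Without replicate 3 of WT PN5, Ooep was called higher at PN5 than at MII (log2 difference 0.73), and Tle6 (-1.05) and Padi6 (-0.92) were called lower, in a fit that called 2632 of 8781 genes.

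From PN5 to the 2-cell embryo, when maternal RNA is cleared and the embryo's own genome switches on, 4 members fell in WT and none rose. Across 13398 genes tested 62.8% were called, 14.8% as lower and 48.0% as higher, and the median log2 difference was -1.67 over the members and 0.70 over all genes. Ooep fell furthest, to 17.7, 15.5 and 39.2 FPKM, or 10.3% of its PN5 mean and 1.55% of its GV mean (log2 difference -3.30, SE 0.38, adjusted p = 0.00011). Zbed3 came down to 321, 636 and 339 FPKM, 22.5% of its PN5 mean (log2 difference -2.10, SE 0.43, adjusted p = 0.0025). Tle6, at 6.0, 7.39 and 2.92 FPKM, also fell (log2 difference -1.89, SE 0.50, adjusted p = 0.0094). Padi6 read 44.0, 40.0 and 25.7 FPKM (log2 difference -1.46, SE 0.43, adjusted p = 0.017), a call that was lost without replicate 3 of the WT 2-cell group (adjusted p = 0.060) and with no filter on low values (adjusted p = 0.054). Nlrp5 at 26.9, 32.8 and 17.1 FPKM (log2 difference -0.76, adjusted p = 0.14) and Khdc3 at 4.67, 2.89 and 2.02 FPKM (log2 difference -0.14, adjusted p = 0.73) did not pass. Nlrp5 passed when replicate 1 of WT PN5 was left out (log2 difference -1.17, adjusted p = 0.012).

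Through this course the makeup of the pool changed. Zbed3 made up 15.1 ± 1.36% of the summed FPKM of the 6 genes in WT GV oocytes and 83.7 ± 1.64% at MII, 80.1 ± 7.18% at PN5 and 80.8 ± 5.22% in 2-cell embryos. In KO its share was 9.12 ± 3.57%, 81.6 ± 3.01%, 87.5 ± 2.12% and 88.3 ± 3.71% at the same stages. The sum itself was 527 ± 180 FPKM in WT and 1683 ± 335 FPKM in KO 2-cell embryos, and no library of one group reached into the other. From MII on, Zbed3 was the highest of the 6 genes in both genotypes and Khdc3 the lowest.

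**Figure D2:**
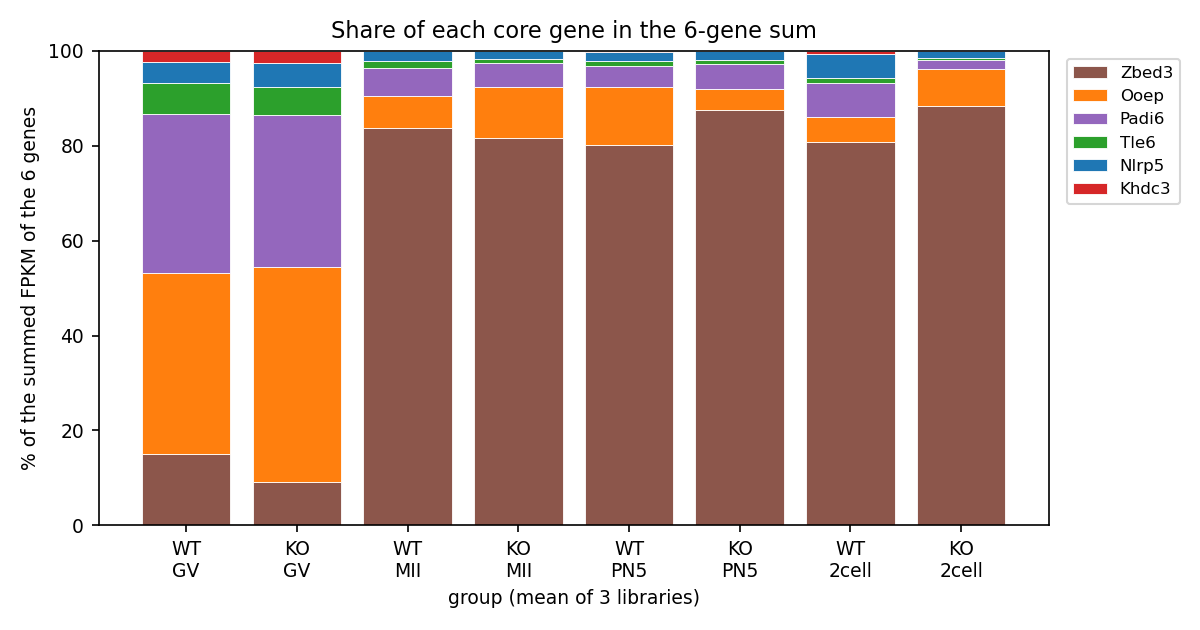
Stacked bars from 0 to 100% give the share of each core gene in the summed FPKM of the 6 genes, as the mean of 3 libraries in each of the 8 groups. Ooep and Padi6 fill most of the bars at GV, and Zbed3 fills over 80% of every bar from MII on.

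In fully grown oocytes, loss of Nlrp14 moved no core transcript past the threshold. Limma called 0 of the 6 members between WT and KO at GV, and 1 had an unadjusted p under 0.05, against 11.8% of all genes. Only 0.0430% of 11635 genes tested were called at this stage. KO libraries 1, 2 and 3 read 335, 300 and 133 FPKM for Nlrp5, 1636, 1742 and 3103 FPKM for Ooep and 413, 389 and 111 FPKM for Tle6. In each gene replicate 3 lay far from the other KO libraries, low for Nlrp5 and Tle6 and high for Ooep. Padi6 (2254, 2039 and 627 FPKM) and Zbed3 (613, 570 and 214 FPKM) were also lowest in replicate 3. Khdc3, at 152, 133 and 100 FPKM, was the 1 member whose KO libraries all lay above WT (log2 difference 0.45, SE 0.18, adjusted p = 0.39), and 23.0% of genes had groups that did not overlap. The other log2 differences were 0.35 for Nlrp5, 0.41 for Ooep, -0.01 for Tle6, 0.07 for Padi6 and -0.54 for Zbed3.

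The GV result depended on that library. Without replicate 3 of KO GV, 3 members were called higher in KO: Khdc3 (log2 difference 0.62, adjusted p = 0.018), Nlrp5 (0.76, adjusted p = 0.022) and Padi6 (0.66, adjusted p = 0.045). The number of genes called over the whole table rose from 5 to 1026 in that fit, or 8.97% of those tested. The log2 level of each gene, relative to its mean over all libraries, was also set against the log2 exon length of its gene model. The slope was -0.15 in the same library, against -0.06 to -0.03 in the other GV libraries, and its part in these values was not tested.

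**Figure D3:**
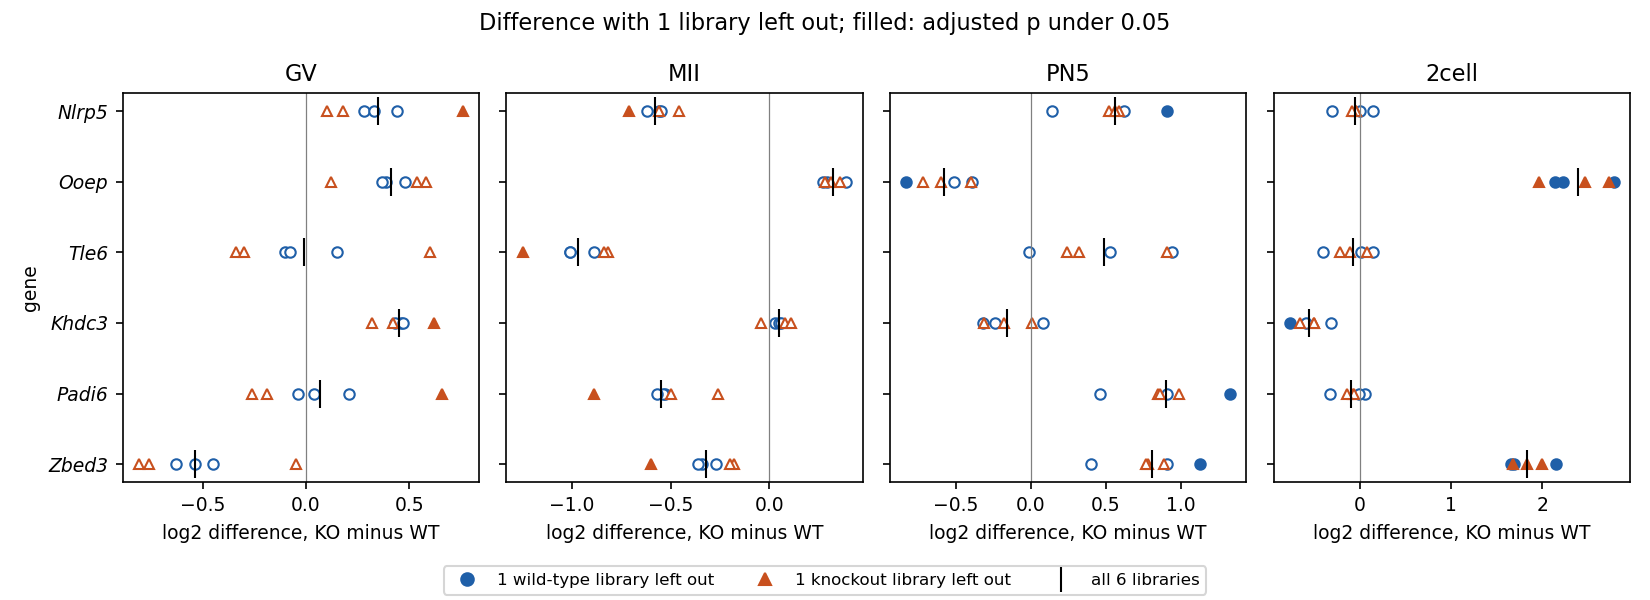
Each symbol is the log2 difference in FPKM + 1 between KO and WT (horizontal axes) for a core gene (vertical axis) with 1 WT (circle) or 1 KO (triangle) library left out; filled symbols have an adjusted p under 0.05 and black ticks give the value from all 6 libraries. Calls at GV, MII and PN5 appear only when 1 particular library is missing, and those of Ooep and Zbed3 in 2-cell embryos are filled throughout.

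In ovulated eggs none of the 6 members was called by limma, with 3 at an unadjusted p under 0.05 where 29.1% of genes had one, and with 2.28% of 8739 genes called. Tle6 showed the largest difference, with KO at 24.9, 13.3 and 13.7 FPKM against the 31.4 to 37.6 FPKM of WT (log2 difference -0.97, SE 0.24, adjusted p = 0.069). Nlrp5 was also lower in every KO library, at 39.8, 27.6 and 32.2 FPKM (log2 difference -0.58, SE 0.17, adjusted p = 0.087). Ooep was higher in every KO library, at 191, 205 and 216 FPKM (log2 difference 0.32, SE 0.14, adjusted p = 0.17). Groups without overlap were found for these 3 members and for 34.5% of all genes. Padi6 (153, 63.4 and 89.3 FPKM, log2 difference -0.55), Zbed3 (2327, 1299 and 1346 FPKM, log2 difference -0.32) and Khdc3 (2.83, 3.51 and 2.65 FPKM, log2 difference 0.05) overlapped with WT. Replicate 1 was the highest KO library for Nlrp5, Tle6, Padi6 and Zbed3. Without it these 4 were called lower in KO, with log2 differences of -0.71, -1.25, -0.89 and -0.60, in a fit that called 36.2% of all genes. Summed FPKM was 319979, 378136 and 348329 in KO replicates 1, 2 and 3, and 306296 to 310410 in WT. The slope on exon length was 0.10, 0.03 and 0.06 in these KO libraries and 0.10 to 0.12 in WT. Replicate 1 was thus the KO library nearest to WT on both, and the part of this in the calls was not tested.

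In PN5 zygotes again 0 of 6 members were called by limma, 1 had an unadjusted p under 0.05 against 31.3% of genes, and 6.10% of 9483 genes were called. Zbed3 read 2814, 3247 and 3280 FPKM in KO, above the 992 to 2735 FPKM of WT (log2 difference 0.81, SE 0.35, adjusted p = 0.16), and was the 1 member without overlap, as were 40.1% of genes. Padi6 had a difference of like size at 199, 198 and 165 FPKM (log2 difference 0.90, SE 0.40, adjusted p = 0.16), with its lowest KO library below the highest WT library. KO libraries were close together for Nlrp5, at 59.7, 66.7 and 63.0 FPKM (log2 difference 0.56), and spread out for Tle6, at 39.4, 44.4 and 16.8 FPKM (log2 difference 0.49). Ooep read 159, 187 and 119 FPKM (log2 difference -0.58, SE 0.28, adjusted p = 0.20) and Khdc3 3.92, 2.17 and 3.10 FPKM (log2 difference -0.16). Leaving out replicate 3 of WT PN5 turned 4 of these into calls, Nlrp5 (0.91), Padi6 (1.33) and Zbed3 (1.13) as higher and Ooep (-0.83) as lower in KO, in a fit that called 32.9% of all genes.

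In 2-cell embryos the core genes parted: Ooep and Zbed3 were higher in KO, and the other 4 did not pass the threshold. This stage had many differences, since 54.3% of 13828 genes were called, 14.0% as higher and 40.3% as lower in KO, with a median log2 difference of -0.44 over all genes. Ooep was measured at 17.7, 15.5 and 39.2 FPKM in WT and at 73.7, 218 and 107 FPKM in KO. The lowest KO library exceeded the highest WT library, and the KO mean of 133 ± 75.5 FPKM was 5.51 times the WT mean of 24.1 ± 13.1 FPKM (log2 difference 2.39, SE 0.45, adjusted p = 0.0027). Ooep has 1 annotated transcript, and its values correspond to 316 to 641 fragments per WT library and 1256 to 3629 per KO library. Zbed3 was measured at 321, 636 and 339 FPKM in WT and at 1183, 1471 and 1806 FPKM in KO. All KO libraries again lay above all WT libraries, with a KO mean 3.44 times the WT mean (log2 difference 1.83, SE 0.29, adjusted p = 0.0013). KO groups lay wholly above WT for these 2 members and for 17.5% of all genes. The differences of Ooep and Zbed3 lay at percentiles 99.3 and 97.8 of all genes.

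Neither call was lost under any of the 7 other settings or with any of the 6 libraries left out. With 1 library left out, the log2 difference of Ooep ranged from 1.96 to 2.78 and that of Zbed3 from 1.66 to 2.15. At this stage the summed FPKM of the 9 oocyte markers was 1203 to 1618 in WT and 3709 to 4366 in KO, with 5 markers called higher and 2 lower. The sum of the 2-cell markers was 939 to 1305 FPKM in WT and 1519 to 2292 FPKM in KO. Of the 7 tested, 2 were called higher and 5 were not called. In WT 14128 to 14561 genes reached 1 FPKM, against 11736 to 12037 in KO. The part of these differences in the values of Ooep and Zbed3 was not tested.

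Nlrp5 read 23.4, 22.9 and 24.9 FPKM in KO 2-cell embryos (log2 difference -0.06, SE 0.25, adjusted p = 0.85), Padi6 32.4, 32.0 and 35.7 FPKM (-0.10, SE 0.24, adjusted p = 0.75) and Tle6 5.95, 3.61 and 5.04 FPKM (-0.08, SE 0.32, adjusted p = 0.84). All 3 overlapped with WT, and their sign turned when libraries were rescaled by median of ratios. That rescaling moved the median of all genes from -0.44 to -0.17. Khdc3 was at 1.58, 1.55 and 2.17 FPKM in KO, close to the level at which genes were filtered (log2 difference -0.56, SE 0.28, adjusted p = 0.12). It was called lower in a fit of all 24 libraries (adjusted p = 0.048) and without replicate 3 of WT 2-cell (log2 difference -0.77, adjusted p = 0.049).

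**Figure D4:**
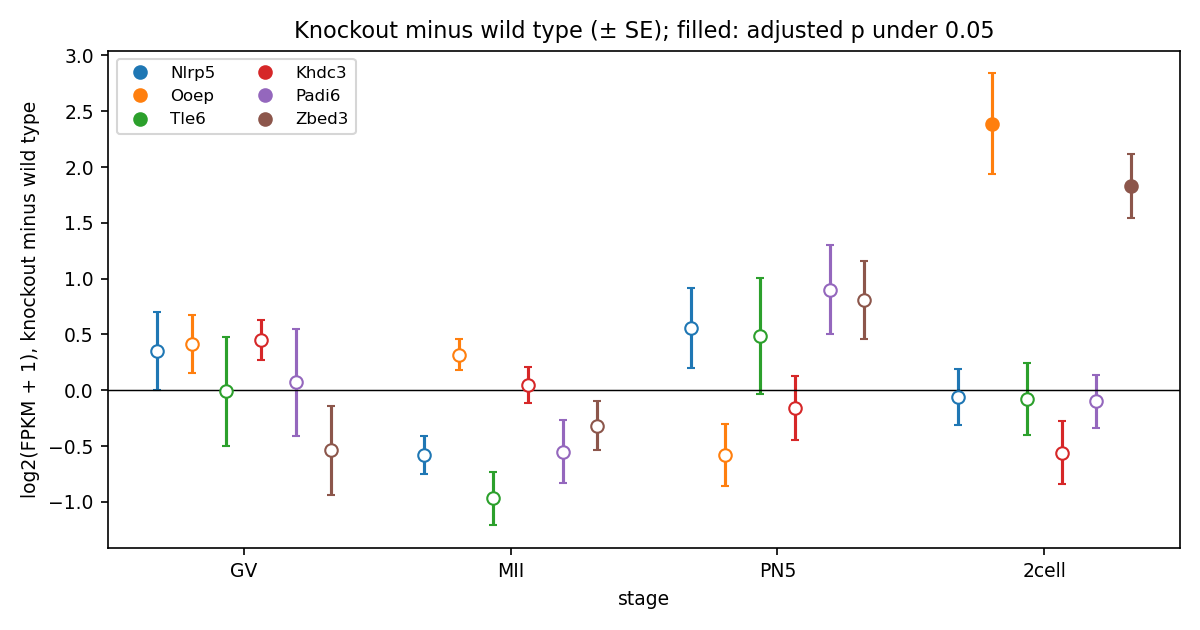
Log2 difference in FPKM + 1 between KO and WT (vertical axis) for the 6 core genes at the 4 stages (horizontal axis), with bars of 1 SE from limma and 3 libraries per group; filled symbols have an adjusted p under 0.05. Filled symbols occur at the 2-cell stage only, for Ooep at 2.39 and Zbed3 at 1.83.

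Whether the KO difference itself changed between neighbouring stages was tested as an interaction. From PN5 to the 2-cell stage it changed for Ooep, from -0.58 to 2.39, an interaction of 2.96 (SE 0.58, adjusted p = 0.0017), and for no other member by limma. Interactions were called for 45.8% of 14986 genes, 13.8% of genes in the direction of Ooep and 31.9% in the other. In terms of level, KO 2-cell embryos held 85.8 ± 48.7% of the KO PN5 mean of Ooep, and WT 2-cell embryos 10.3 ± 5.57% of the WT PN5 mean. The SD covers the 2-cell libraries only. Summed FPKM was 316791 to 321414 in KO PN5 and 486048 to 507768 in KO 2-cell libraries. In WT it was 322159 to 462297 and 444357 to 534727, and its part in these percentages was not tested. For Zbed3 the corresponding values were 47.8% and 22.5%, with an interaction of 1.02 (SE 0.49, adjusted p = 0.11). That interaction was called without replicate 1 of WT PN5 (1.43) or replicate 2 of WT 2-cell (1.33). Padi6, with an interaction of -1.0 (adjusted p = 0.11), was called without replicate 3 of WT PN5 (-1.42).

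From GV to MII no member had a called interaction (0.120% of 12478 genes did; 1 member at an unadjusted p under 0.05 against 6.64% of genes), and the furthest from 0 was Tle6 at -0.96 (adjusted p = 0.86). Nlrp5, at -0.92, was called without replicate 3 of KO GV (-1.34). From MII to PN5 again 0 were called by limma (7.45% of 10190 genes were), while 5 of 6 had an unadjusted p under 0.05 against 38.6% of genes. These were Padi6 (1.45), Tle6 (1.46), Zbed3 (1.14), Nlrp5 (1.13) and Ooep (-0.89), with adjusted p-values of 0.072 to 0.12. All 5 were called without replicate 3 of WT PN5, in a fit that called 41.4% of all genes. Padi6 and Zbed3 were also called without replicate 1 of KO MII, where 26.5% of all genes were.

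The other genes around the complex were read from 4 lists, which were chosen with earlier results of these data known. At GV, MII and PN5 no listed gene was called between KO and WT by limma, over 27 to 29 listed genes tested at a stage. At GV 2 of 29 listed genes had an unadjusted p under 0.05 against 11.8% of all genes, at MII 11 of 27 against 29.1% and at PN5 11 of 28 against 31.3%. As with the members, leaving out single libraries moved this count. It was 6 at GV without replicate 3 of KO, 19 at MII without replicate 1 of KO and 15 at PN5 without replicate 3 of WT. Of all genes these fits called 8.97%, 36.2% and 32.9%. With no library left out, 6 listed genes were called at PN5 in a fit of all 24 libraries (12.2% of all genes). As TPM, 1 was called at MII (2.18% of all genes).

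In 2-cell embryos all 5 partners of the complex and the lattices were higher in KO, where 14.0% of all genes were called higher and 40.3% lower. Their median log2 difference was 1.75, against -0.44 over all genes. Since the list was chosen with earlier results known, this count is a description and not a test of the partners. Skp1a, which encodes a subunit of the SCF ubiquitin ligases, averaged 201 FPKM in WT (168 to 236) and 947 FPKM in KO (908 to 1023; log2 difference 2.24, SE 0.18, adjusted p = 0.00021). Nlrp4f, an oocyte NLR gene, went from 29.9 FPKM (23.0 to 42.2) to 122 FPKM (113 to 128; log2 difference 2.04, adjusted p = 0.00051). Ube2d3, a ubiquitin-conjugating enzyme, averaged 42.9 and 144 FPKM (log2 difference 1.75, adjusted p = 0.00048) and Nlrp2 4.31 and 10.3 FPKM (log2 difference 1.14, adjusted p = 0.0099). In each of these, as in the fifth partner, every KO library lay above every WT library, which held for 17.5% of all genes. The fifth partner, Uhrf1, a reader of hemimethylated DNA, averaged 3.88 and 8.70 FPKM (log2 difference 0.98, adjusted p = 0.016), a call that was lost without replicate 1 of WT 2-cell (adjusted p = 0.057) or replicate 2 of KO 2-cell (adjusted p = 0.058). In WT all 5 partners fell from PN5 to the 2-cell embryo, as 14.8% of all genes did, with a median of -1.76 against 0.70 over all genes, though Ube2d3 did not pass once the length trend was removed (adjusted p = 0.19). Interactions between PN5 and the 2-cell stage were called for 3 of them, Skp1a (3.23), Nlrp4f (1.92) and Ube2d3 (1.83), where 45.8% of all genes were called and 13.8% in this direction.

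Of 13 maternal-effect genes outside the complex, 5 were higher and 2 lower in KO 2-cell embryos (14.0% and 40.3% of all genes), with a median log2 difference of 0.20. Dppa3, which guards the maternal genome against demethylation, averaged 5303 FPKM in WT and 16965 FPKM in KO (log2 difference 1.67, adjusted p = 0.00041). Btg4, an adaptor of maternal mRNA deadenylation, averaged 1217 and 3892 FPKM (1.73, adjusted p = 0.00082) and the histone chaperone Npm2 114 and 452 FPKM (2.00, adjusted p = 0.0013). Trim28, a co-repressor, was lower, at 10.3 and 2.52 FPKM (-1.67, adjusted p = 0.00079). KO values lay on both sides of WT in this list.

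Oocyte transcription factors were called in both directions, 2 higher and 2 lower of 6, where 14.0% of all genes were called higher and 40.3% lower. Nobox (log2 difference 1.02, adjusted p = 0.024) and Lhx8 (0.97, adjusted p = 0.012) were higher, and Taf4b (-0.96, adjusted p = 0.0075) and Sohlh1 (-1.50, adjusted p = 0.044) lower. The call of Nobox was lost without replicate 3 of WT, replicate 2 of KO or replicate 3 of KO (adjusted p = 0.057, 0.076 and 0.060), and also with no filter on low values (0.069) and as TPM (0.055). That of Sohlh1 was lost without replicate 2 or 3 of KO (adjusted p = 0.12 and 0.077) and under 4 of the 7 other settings (adjusted p = 0.056 to 0.12). Among relatives of the members by protein family or gene cluster, 2 were higher and 4 lower of 8 tested, out of 14 matched to the annotation. These counts stand beside the same shares of 14.0% and 40.3% over all genes. The call of 1 of the lower relatives, Zbed4 (-0.64, adjusted p = 0.045), was lost under 4 of the 7 other settings and with 5 of the 6 libraries left out, and 4 or 5 relatives were called with any 1 library left out. Dppa5a, a KH-domain gene of the same family as Ooep and Khdc3, averaged 520 FPKM in WT (398 to 634) and 61.0 FPKM in KO (57.2 to 63.6; log2 difference -3.05, adjusted p = 0.0002). Its relative Khdc1b averaged 880 and 1612 FPKM (0.88, adjusted p = 0.0031). Tle1 (-1.05, adjusted p = 0.0039) and Tle4 (-0.96, adjusted p = 0.01), of the family of Tle6, were lower. Tle4 averaged 7.09 FPKM in WT and 3.13 FPKM in KO. Tle1 averaged 1.83 FPKM in WT (1.57 to 2.28) and 0.365 FPKM in KO (0.254 to 0.487). Tle1, counted among the lower relatives, passed the filter through its WT libraries alone, so the direction of its call was set by the filter. In WT, Dppa5a rose from 47.7 FPKM at PN5 to its 2-cell level (log2 difference 3.52, adjusted p = 6.1e-05), whereas Ooep fell and Khdc3 did not pass.

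**Figure D5:**
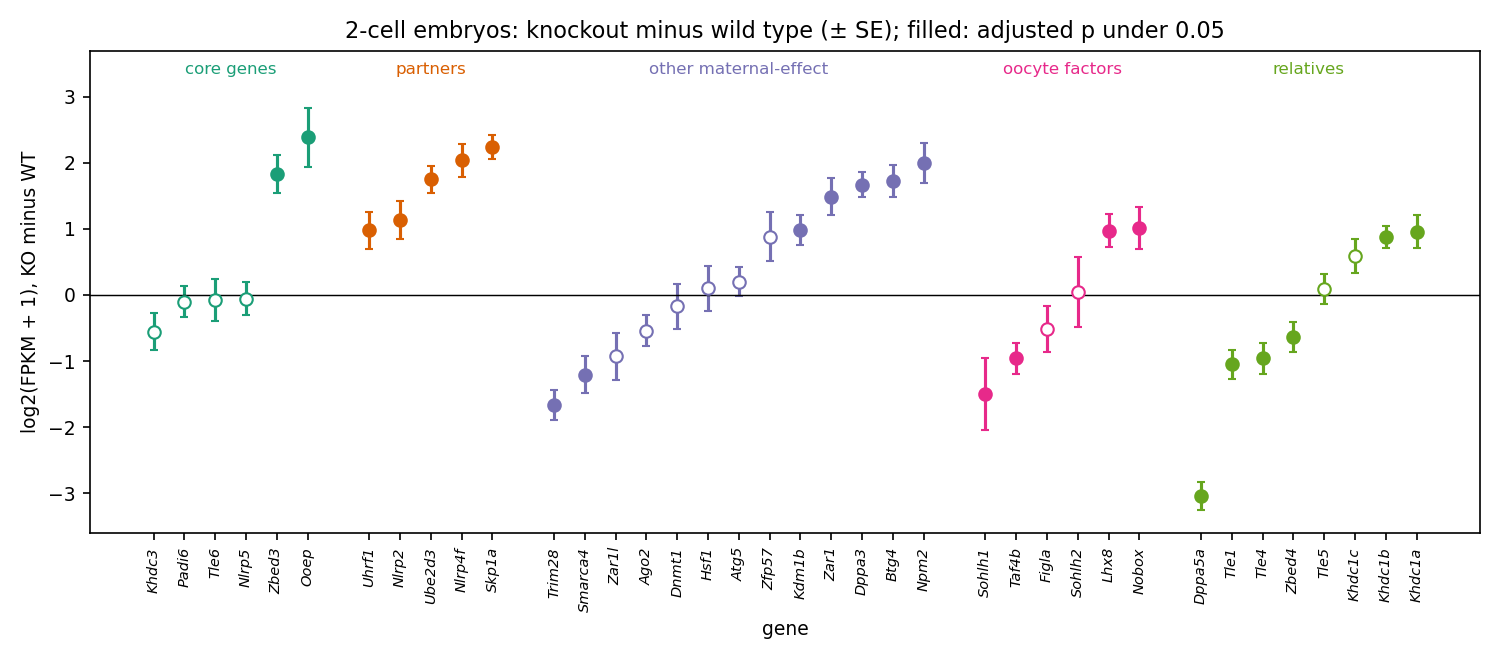
Log2 difference in FPKM + 1 between KO and WT 2-cell embryos (vertical axis, bars of 1 SE) for the core genes and the tested members of 4 lists (horizontal axis), sorted within each list; filled symbols have an adjusted p under 0.05. All 5 partners are filled and above 0, while the other lists hold filled symbols on both sides of 0. The lists were chosen with earlier results of these data known.

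The listed genes also moved during maturation in WT. Of 5 partners 3 rose and 2 fell from GV to MII, of 13 maternal-effect genes 4 rose and 6 fell, of 5 oocyte factors tested 2 rose and 3 fell, and of 6 relatives tested 3 rose and 2 fell. Over all genes 31.1% were called higher and 52.8% lower. With the length trend of each library removed, the rises of Nlrp4f (0.11), Uhrf1 (0.07), Tle4 (0.03) and Zbed4 (0.03) were not called. In that fit Ube2d3 turned to a called fall (-0.22) and Dppa3 to a called rise (0.23). As TPM, Dppa3 was also called as a rise (0.11), and the fall of Khdc1a was not called (-0.17, adjusted p = 0.32). A fit of all 24 libraries did not call Nlrp4f, Uhrf1, Tle4, Khdc1a or Dppa3. The call of Khdc1a was lost without replicate 1 or 3 of WT GV or replicate 1 of WT MII, and that of Uhrf1 without replicate 3 of WT GV (adjusted p = 0.051 to 0.061). Figla, the oocyte helix-loop-helix factor, fell from 59.5 to 0.527 FPKM (log2 difference -5.30, adjusted p = 1.1e-08), and Zar1l from 681 to 19.2 FPKM (-5.08, adjusted p = 8.3e-09). Figla passed the filter through its GV libraries alone, so the direction of its call was set by the filter. Dppa5a dropped from 780 to 27.1 FPKM (-4.80, adjusted p = 9.2e-09), close to the size of the drop of Khdc3.

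The members were last compared by the shape of their profile over the 8 group means of log2(FPKM + 1), each centred on its own mean, among 9410 other genes that averaged at least 5 FPKM in some group. The root mean square difference served as the measure, where 0 is the same shape. Padi6 and Tle6 were each other's nearest gene, at 0.19. The second nearest was Zp1, a zona pellucida gene, for Padi6 (0.25) and Gja4, the oocyte gap junction gene, for Tle6 (0.36). Nearest to Nlrp5 were Ccno (0.22) and Pdzk1 (0.25), with Padi6 as the nearest member at rank 945 (0.80). Ooep had no gene closer than Tcea3 (0.45) and Oas1h (0.50), and Padi6 ranked 30 for it (0.77). Oas1h averaged 12.6 FPKM in WT and 53.8 FPKM in KO 2-cell embryos, and Tcea3 1.37 and 5.89 FPKM. Khdc3 was nearest to Bloc1s1 (0.12) and the predicted gene Gm33370 (0.28), and Padi6 ranked 120 for it (0.79). After GV no group mean exceeded 0.654 FPKM for Bloc1s1 or 1.31 FPKM for Gm33370. These values lie near or below the 1 FPKM added before the log, which limits what the distances of these genes to Khdc3 can tell.

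Zbed3 stood apart from the other core genes in shape. Its nearest genes were Rnf34 and Helq, both at 0.25, and the nearest member, Nlrp5, ranked 6167 (1.83). Rnf34, a ubiquitin ligase gene, averaged 47.9 FPKM in WT GV oocytes, 152 FPKM at MII, 117 FPKM at PN5 and 26.7 FPKM in WT 2-cell embryos, against 92.7 FPKM in KO 2-cell embryos. The group means behind these distances share libraries among all genes, and no test was attached to them.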

How the data were processed

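For each of 24 libraries the authors deposited FPKM values for 55487 genes, made with StringTie on GRCm38 per the submitters' processing notes. The aligner, annotation release and filters are not given in the sources used here. In genes with 1 annotated transcript, 98.92 to 99.31% of low values were whole multiples of 1 fragment per library (tolerance 0.02, up to 30 multiples), so that 1 fragment in 1 kb was worth 0.0814 to 0.131 FPKM. Genes with several transcripts were not checked in this way, and no count model was used. GENCODE M21 named 55141 genes, and 346 had no symbol.

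Each comparison was fitted with limma 3.58.1 (R 4.3.3, data.table of version 1.17.8, trend and robust) on log2(FPKM + 1), over the libraries of its own groups. Log2 differences are on this scale, which understates changes of low genes. A gene was tested when 3 or more libraries of the fit held 1 FPKM or more. A call is a Benjamini-Hochberg adjusted p under 0.05 over all tested genes. The fit was tested on simulated data, drawn with the WT spread in both groups and with no outlying library. That simulation therefore cannot speak to results that turn on a single library. Alternatives were a pseudocount of 0.1, no filter, median-of-ratios rescaling, TPM, removal of a length trend, the replicate number as a block, all 24 libraries in one fit, and each library left out. Groups came from the labels, and no library was dropped or imputed.

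The members and lists were chosen with earlier results of these data known. By the rule for named genes, the text takes the 6 members, Nlrp14, at most 4 genes per list and comparison by smallest p, and the 2 nearest profiles per member. The name of the fifth partner was added after its values were seen, and so were genes named only for a change under another setting. Other steps and figures used Python 3.11.15, pandas 2.3.3, numpy 2.4.6 and matplotlib 3.10.9.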

Additional observations from a re-analysis of the deposited data

Results flagged for a closer look

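The KO difference of Ooep differed between PN5 zygotes and 2-cell embryos by a test of that change, with an interaction of 2.96 (SE 0.58, adjusted p = 0.0017, limma). At PN5 the KO libraries read 159, 187 and 119 FPKM against 295, 248 and 161 FPKM in WT, and in 2-cell embryos 73.7, 218 and 107 FPKM against 17.7, 15.5 and 39.2 FPKM. All 3 KO libraries exceeded all WT libraries at the second stage. With each of the 12 libraries left out in turn the interaction lay between 2.53 and 3.36 and was called every time, and the 7 other settings gave 2.70 to 3.01. Each library was left out in turn, but no formal test for outlying samples was run in groups of 3 libraries.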

How the results depend on the processing

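The 7 settings other than leaving out a library changed the number of members called in none of the comparisons by more than 1 gene. With 1 library left out, the number called ranged from 0 to 3 at GV, 0 to 4 at MII, 0 to 4 at PN5 and 2 to 3 in 2-cell embryos for KO against WT. In WT it ranged from 6 to 6 for MII against GV, 0 to 3 for PN5 against MII and 3 to 5 for 2-cell against PN5. For the interactions it ranged from 0 to 1, from 0 to 5 and from 1 to 2, in the order of the stages. No cause of these changes was tested. Of 420 member results under other settings 406 kept both direction and call.

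Differences near 0 changed sign. At GV Tle6 was 0.04 with median-of-ratios rescaling and 0.01 with the length trend removed, and Padi6 was -0.02 as TPM. As TPM Khdc3 was -0.10 at MII, 0.03 at PN5, -0.02 in WT from MII to PN5 and 0.13 in the interaction of those stages. With median-of-ratios rescaling the KO 2-cell differences were 0.28 for Nlrp5, 0.22 for Tle6 and 0.25 for Padi6, and the interaction of Ooep between GV and MII was 0.01. In WT from GV to MII, Dppa3 was 0.11 as TPM and 0.23 with the length trend removed, and Ube2d3 was -0.22 with the latter. With 1 library left out, values spanned -0.34 to 0.60 for Tle6 and -0.26 to 0.66 for Padi6 at GV, -0.04 to 0.11 for Khdc3 at MII, and -0.01 to 0.94 for Tle6 and -0.32 to 0.08 for Khdc3 at PN5. In 2-cell embryos they spanned -0.31 to 0.14 for Nlrp5, -0.41 to 0.14 for Tle6 and -0.33 to 0.05 for Padi6. In WT they spanned -0.56 to 0.20 for Nlrp5, -0.03 to 0.38 for Khdc3 and -0.49 to 0.24 for Zbed3 from MII to PN5, and -0.38 to 0.10 for Khdc3 from PN5 to 2-cell. Interactions spanned -0.27 to 0.20 for Ooep and -0.27 to 0.49 for Zbed3 between GV and MII, and -0.37 to 0.03 for Khdc3 between MII and PN5.

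The replicate numbers did not pair the libraries: deviations of same-numbered libraries correlated at -0.223 to 0.245 for KO against WT, and only between WT MII and PN5 (0.05 to 0.23) did all 3 correlate best with their own number. With the replicate block the members called stayed at 2 in 2-cell embryos, 6 and 4 in WT from GV to MII and from PN5 to 2-cell, 1 in the last interaction and 0 elsewhere. Over all genes the block gave 2 calls at GV in place of 5, 132 at MII in place of 199, 1 at PN5 in place of 578 and 7011 in 2-cell embryos in place of 7513. Other settings moved the count from 2 to 164 at GV, 8 to 273 at MII and 1 to 2005 at PN5, so the background shares at these stages depend on the fit. Where a gene lies near 1 FPKM, as Khdc3 does after GV, depth limits what can be told.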
